A study of Arabidopsis thaliana with 4 samples.

Results

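A transposable element gene is an annotated gene inside a piece of DNA that can move, or once could move, to new places in the genome. Of the 33624 rows of the gene table of this study, 3846 were described as such, and 1 of them carried no usable value. Of the remaining 3845, 3702 were listed at 0 in each of the 4 libraries, 143 were above 0 in at least 1 library, and 48 averaged 1 FPKM or more across the libraries. FPKM is fragments per kilobase of transcript, with the library's total scaled out, a level comparable between genes of different length. The 48 genes are the subject here, and their mean level is what chose them. It is therefore given as a description, with no test. In a further 50 rows the authors' gene type was that of a transposable element gene but the description began otherwise. Of these, 8 had a mean of at least 1 FPKM and they were not counted.

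The RNA came from 5-day-old Arabidopsis seedlings grown on MS medium, and each of the 4 conditions gave 1 library. The conditions were wbc19 mutant seedlings with 50 mg/l kanamycin, wbc19 mutant seedlings without it, control seedlings with 50 mg/l kanamycin, and control seedlings without it. The mutant is the homozygous T-DNA insertion line SALK_107731 and the control is the insertion line SALK_064816C, and both carry the kanamycin resistance gene NPTII of the T-DNA. The insertion of the mutant lies in the ABC transporter gene WBC19, and that of the control lies upstream of TT4 with no gene disrupted. Each genotype was 1 insertion line, so the line and the mutation cannot be told apart. Because no condition was repeated, no difference below has a replicate check, no p-value is given, and values compare libraries and not conditions.

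WBC19 (ABCG19, AT3G55130) was at 2.30 FPKM under the label wbc19 mutant + kanamycin and 3.00 FPKM under wbc19 mutant, and it was listed at 0 under control + kanamycin and control. This goes against the label of a knockout, although both values are low and no reads were estimated for this gene. Where in the gene the reads lie relative to the insertion is not given. Libraries are therefore called by their labels throughout, and a value under a label is that of the library so labelled. Of all table genes with usable values, 26.8% to 45.0% were above 0 in a library. Among 1013 genes whose reads under the label control were put at 20 to 40, 4.05% were listed at 0 under wbc19 mutant + kanamycin, 19.2% under wbc19 mutant and 10.8% under control + kanamycin. A value of 0 was thus common for genes with reads elsewhere, and no size of a fold change is printed against it, although counts by size include such genes. The 5 shoot markers, among them RBCS1A and LHCA3, were above 0 in all libraries, with sums of 11882 to 17400 FPKM. The 6 root markers summed to 531 FPKM under wbc19 mutant + kanamycin, 1382 FPKM under wbc19 mutant, 639 FPKM under control + kanamycin and 927 FPKM under control. Nearly all of it was PYK10, and EXPA7 was listed at 0. Single markers did not share an order, as SCR was highest under wbc19 mutant + kanamycin (30.8 FPKM) and PHT1;1 under wbc19 mutant (65.7 FPKM). The authors describe stunted roots in mutant seedlings on kanamycin, and the share of root tissue in the libraries was not tested. The 3 pollen markers were listed at 0 everywhere, and of 4 seed storage genes only CRA1 was above 0, in the libraries labelled wbc19 mutant and control.

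Transposable elements fall into classes by how they move. Retrotransposons are copied through RNA: copia and gypsy elements carry long terminal repeats and resemble retroviruses without an envelope, and LINE elements lack these repeats. DNA transposons such as Mutator, hAT and CACTA elements are cut out and moved by a transposase. Plants keep most of them silent by DNA methylation, repressive histone marks and small RNAs, so that a seedling yields little RNA from them. A few have been taken over by the host as ordinary genes. The best known in Arabidopsis are the MUSTANG genes, which derive from Mutator transposases and serve in growth and flowering.

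The members were unevenly spread over the families named in their descriptions. Copia elements gave 19 members of 497 genes (3.82%) and Mutator elements 10 of 288 (3.47%). The hAT family gave 2 of 75 (2.67%), LINE elements 3 of 320 (0.938%), gypsy elements outside the Athila line 3 of 375 (0.80%) and CACTA elements 2 of 333 (0.601%). Athila, the largest gypsy line, gave 1 of 550 (0.182%), the 9 mariner genes gave none, and 8 members came from 1398 genes with another or no family name (0.572%). These shares rest on the same levels that chose the members and are not tested.

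Most members were low. Their median mean was 2.75 FPKM, against 7.80 FPKM for all 15340 genes that averaged 1 FPKM or more, and 6 members reached a mean of 10 FPKM. Of 46 members on transcripts of at least 500 bases, 117 values were above 0, and 53 of these came to fewer than 10 estimated reads. The estimated reads may be too few, and the count of 53 too high, because the study lists more mapped reads than the estimate implies. The number of members above 0 was 34 under the label wbc19 mutant + kanamycin, 18 under wbc19 mutant, 30 under control + kanamycin and 38 under control. In the same order, the share of members above 0 was 70.8%, 37.5%, 62.5% and 79.2%, and that of all genes that averaged 1 FPKM or more was 79.9%, 57.7%, 69.6% and 87.6%. The order of the libraries was the same in both. In whole seedlings, fewer cells that express a gene and less of its RNA per cell cannot be told apart. Only 11 members were above 0 in all 4 libraries and 10 (20.8%) were above 0 in a single one, against 12.3% of all genes that averaged 1 FPKM or more and 19% of those at 1 to 10 FPKM. In 40 members (83.3%), more than 50% of the FPKM summed over the 4 libraries came from 1 library, as in 63.7% of all these genes and 78.5% of those at 1 to 10 FPKM.

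**Figure D1:**
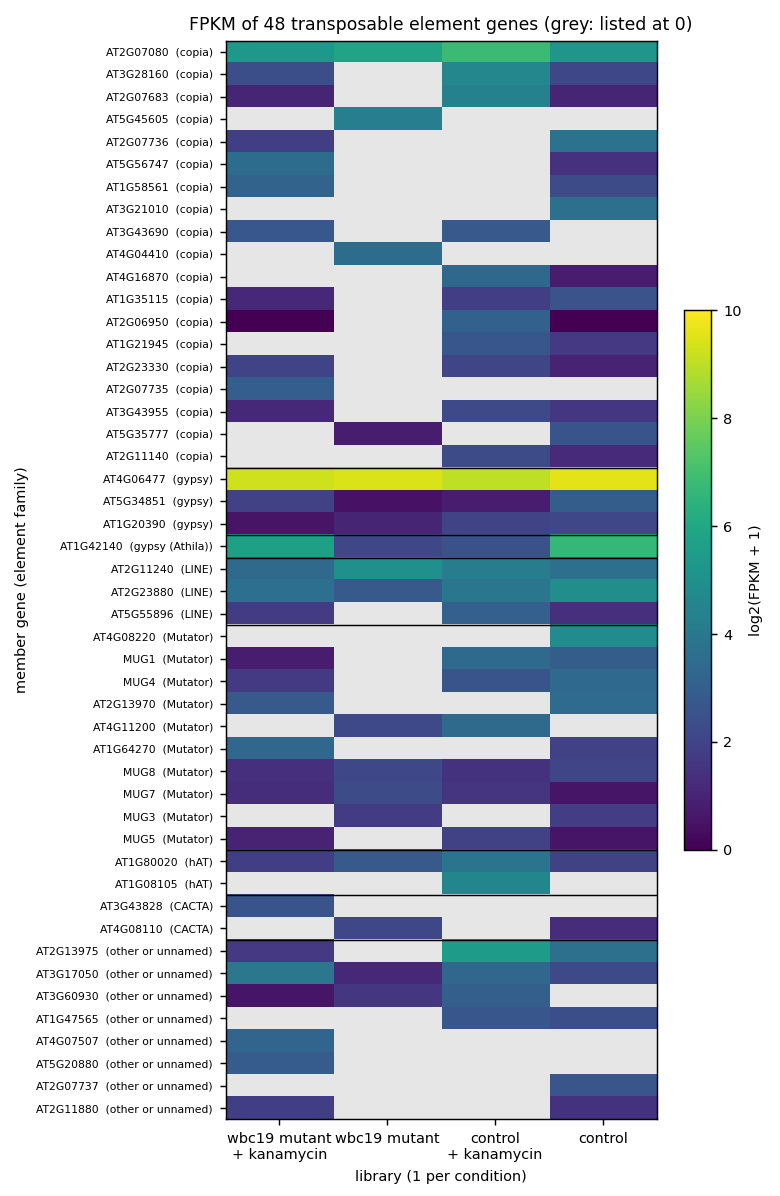
Level of each of the 48 members in the 4 libraries, as log2(FPKM + 1), in rows grouped by element family and ordered by mean level, with grey cells where a gene is listed at 0. AT4G06477 is the only row that is bright in all 4 columns, and the column of the library labelled wbc19 mutant holds 30 grey cells.

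The gypsy gene AT4G06477 stood far above all other members. This gene, on the minus strand at chr4:3060975-3065294 of TAIR10 in 1 exon, matches a gypsy polyprotein by its description. It was at 613 FPKM under the label wbc19 mutant + kanamycin, 688 FPKM under wbc19 mutant, 527 FPKM under control + kanamycin and 763 FPKM under control. The 4 libraries lay close together, with log2 differences of −0.53 to 0.22 in the 4 comparisons, none of them 2-fold. At an estimated 1948 to 3733 reads per library, the exact 95% Poisson intervals were 586 to 641, 666 to 711, 509 to 545 and 733 to 794 FPKM in that order of libraries, for counting error only. The gene made up 73.1%, 81.7%, 58.2% and 69.4% of the summed FPKM of the members in the same libraries. Sums over members or over the gypsy family are thus mostly the level of this gene, and without it the 47 other members summed to 225, 154, 379 and 336 FPKM.

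The sequence of AT4G06477 was compared with the whole reference genome in windows of 36 bases, the read length that the authors kept. Of its windows, 90.4% occurred at 1 place only as exact matches. The authors' alignment allowed mismatches, and near copies were not counted. Windows with a few copies occurred along the gene, but all 85 windows with more than 20 copies fell between bases 3827 and 4273 of 4320, counted from the gene's start. The most copied window, in capitals below on the gene's own strand, is shown because it ties the most abundant member to a tandem repeat:
AT4G06477: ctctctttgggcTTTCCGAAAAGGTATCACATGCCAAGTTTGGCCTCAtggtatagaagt
It lies at chr4:3061309-3061368 with its flanks and has 167 copies, 120 on chromosome 3, 33 on chromosome 5 and 14 on chromosome 4. The copies on chromosome 4 start between bases 3054381 and 3061321 and so reach the gene's 3′ end. Of 123 gaps of under 2000 bases between neighbouring copies, 55 measured 480 to 520 bases, and 159 copies lay outside annotated genes. As background, the 5S ribosomal RNA genes of Arabidopsis form tandem arrays near the centromeres of chromosomes 3, 4 and 5, but the reference used here does not name these copies. The deposited value is 1 number per gene, so the share of its reads that came from the repeat cannot be told apart.

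**Figure D2:**
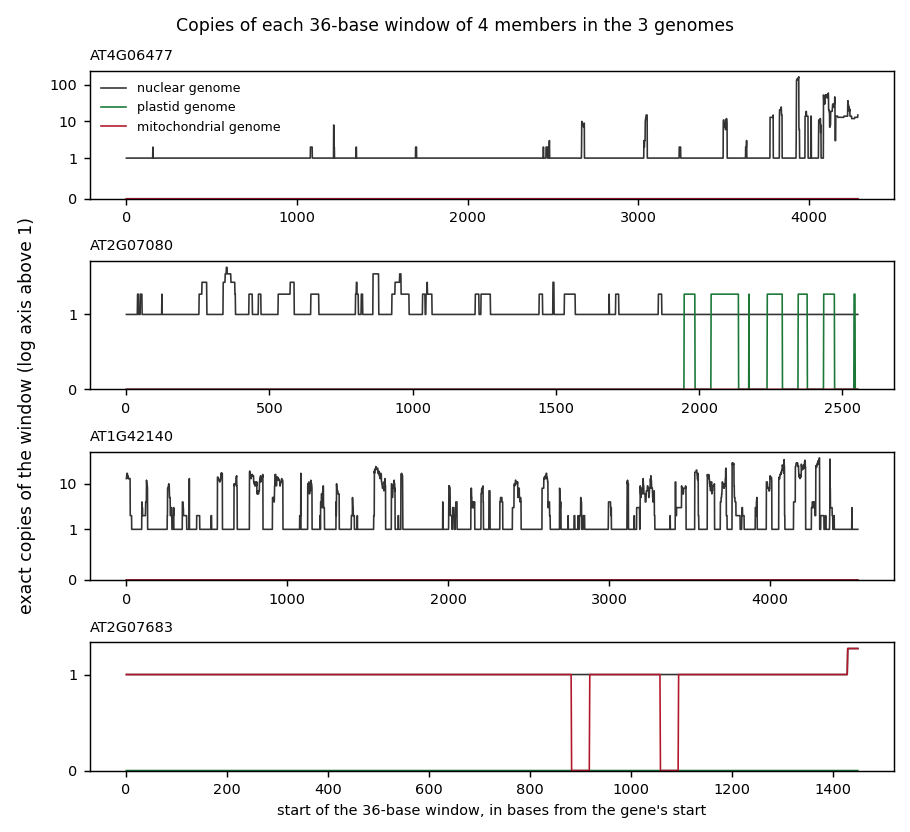
Exact copies of each 36-base window in the nuclear, plastid and mitochondrial genomes (vertical, log axis above 1) against its start in bases from the gene's start, for 4 members. Windows of AT4G06477 exceed 20 copies only near its 3′ end, the end of AT2G07080 also occurs in the plastid genome, repeats run along AT1G42140, and most of AT2G07683 also occurs in the mitochondrial genome.

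The other gypsy genes outside the Athila line were far lower. AT5G34851, at chr5:13086817-13091997, was at 2.80 FPKM under the label wbc19 mutant + kanamycin, 0.417 FPKM under wbc19 mutant, 0.712 FPKM under control + kanamycin and 6.79 FPKM under control. AT1G20390 was at 0.430, 1.03, 3.13 and 3.34 FPKM in the same order. AT5G34851 was thus highest under wbc19 mutant + kanamycin and under control, and AT1G20390 under both control labels.

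AT1G42140, the only Athila member, showed the same order of libraries as AT5G34851 at a higher level. Athila elements are long gypsy elements packed around the centromeres, and this copy lies on the minus strand at chr1:15736521-15741101. It was at 50.0 FPKM under the label wbc19 mutant + kanamycin, 3.35 FPKM under wbc19 mutant, 4.54 FPKM under control + kanamycin and 99.9 FPKM under control. The exact 95% Poisson intervals were 42.8 to 58.2, 1.98 to 5.14, 3.11 to 6.50 and 89.7 to 111 FPKM, so that both high libraries lay apart from both low ones beyond counting error. The log2 difference was −4.19 for control + kanamycin against control, −4.54 for wbc19 mutant against control, 3.20 for wbc19 mutant + kanamycin against control + kanamycin, and 3.55 for wbc19 mutant + kanamycin against wbc19 mutant. Of its windows, 67.9% occurred at 1 place, and the most copied one is shown since it carries the gene's repeats:
AT1G42140: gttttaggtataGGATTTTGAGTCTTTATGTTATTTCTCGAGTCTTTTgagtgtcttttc
The window in capitals, at chr1:15736747-15736806 with its flanks, has 37 copies spread over all 5 chromosomes, with 6, 8, 8, 6 and 9 on chromosomes 1 to 5. These are dispersed copies, as none of the gaps between neighbours was under 2000 bases. Reads of this element may come from related copies, which was not tested.

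Copia elements gave the most members, and AT2G07080 was the highest of them. This gene, at chr2:2936239-2938827 on the plus strand, was at 38.8 FPKM under the label wbc19 mutant + kanamycin, 56.0 FPKM under wbc19 mutant, 111 FPKM under control + kanamycin and 36.2 FPKM under control. The library labelled control + kanamycin was the highest, with an interval of 100 to 122 FPKM, against 28.2 to 45.8 FPKM under control. The log2 difference was 1.59 for control + kanamycin against control and −1.49 for wbc19 mutant + kanamycin against control + kanamycin. It was 0.62 for wbc19 mutant against control and −0.52 for wbc19 mutant + kanamycin against wbc19 mutant, both under 2-fold.

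Copia elements start their reverse transcription from a host transfer RNA that pairs with a primer binding site behind the first long terminal repeat. Of 23 nuclear tRNA-Met genes in the reference, 8 end in the same 9 bases and 11 in another. Of the ends, that of the 8 genes was taken because its motif matched the most copia genes, 209, against 1 for the motif of the 11, so the shares of copia genes below follow in part from that choice. With the CCA that is added to every transfer RNA, the complement of that end is TGGTATCAGAGC, and this motif of 12 bases was searched on both strands of each gene with 1000 bases on either side. It was found at 9 of 19 copia members (47.4%) and at 200 of 478 other copia genes (41.8%). Of 22487 stretches of 5298 bases across the 5 chromosomes, the median length searched at copia members, 1.83% held it. Outside the copia family 1 member held it, the gypsy gene AT5G34851, as did 78 of 372 other gypsy genes (21.0%). In all 10 members it stood on the strand of the gene, and in 5 of the copia members it lay upstream of the annotated gene. The 5 copia members with the highest mean among those that hold it are shown, with the motif in capitals on the gene's strand:
AT2G07080: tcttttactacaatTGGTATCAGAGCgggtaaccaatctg
AT3G28160: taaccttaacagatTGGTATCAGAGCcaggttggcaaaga
AT5G45605: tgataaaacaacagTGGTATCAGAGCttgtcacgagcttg
AT1G58561: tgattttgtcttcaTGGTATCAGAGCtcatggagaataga
AT4G04410: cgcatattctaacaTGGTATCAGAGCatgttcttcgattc
These lie at chr2:2936165-2936204, chr3:10495020-10495059, chr5:18494936-18494975, chr1:21748604-21748643 and chr4:2189355-2189394. The bases on either side differ between the 5 genes. A match is a description of the sequence and shows no use of the site.

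The end of AT2G07080 is also plastid sequence. Its bases 1943 to 2588 of 2589 were the same as plastid bases 138611 to 139256 at 625 of 646 positions (96.7%), in the inverted repeat that also holds RPS12, RPS7 and the 16S ribosomal RNA gene. A stretch of 120 bases from the middle of it is shown from both genomes, with the 2 differing bases in capitals:
AT2G07080: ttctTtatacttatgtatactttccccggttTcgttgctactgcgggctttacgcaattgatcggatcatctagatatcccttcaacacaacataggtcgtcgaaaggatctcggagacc
plastid: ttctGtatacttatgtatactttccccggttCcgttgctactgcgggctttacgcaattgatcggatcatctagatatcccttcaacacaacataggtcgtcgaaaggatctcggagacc
The nuclear stretch is chr2:2938444-2938563. In all, 262 of the gene's 36-base windows (10.3%) also occurred unchanged in the plastid genome, and windows with mismatches were not counted. The plastid genes in that repeat are abundant and did not share an order of libraries. RPS12, a ribosomal protein gene, was at 177 FPKM under the label wbc19 mutant + kanamycin, 280 FPKM under wbc19 mutant, 317 FPKM under control + kanamycin and 216 FPKM under control. RPS7, of the same ribosomal subunit, was at 215, 385, 259 and 280 FPKM in that order, and the first copy of the 16S ribosomal RNA gene at 32640, 29027, 27277 and 32902 FPKM. The highest library was that of AT2G07080, control + kanamycin, for RPS12 only, and it was the lowest for the 16S gene. The plastid share in the reads of AT2G07080 was not tested.

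A group of copia members carries mitochondrial sequence. Chromosome 2 of Arabidopsis holds a large insertion of mitochondrial DNA near its centromere, and AT2G07683, AT2G07735 and AT2G07736, with AT2G07737 of no named family, lie in such sequence. In the last 3, each 36-base window also occurred in the mitochondrial genome and none was at 1 place only. In AT2G07683, at chr2:3301883-3303367, 1378 of 1450 windows (95%) did so. Its highest level was 20.3 FPKM under the label control + kanamycin, against 1.03 FPKM under control, with 1.07 FPKM under wbc19 mutant + kanamycin and 0 listed under wbc19 mutant. The gene holds, on the opposite strand, a tRNA-Glu gene that is identical to the mitochondrial one over its 72 bases, shown in capitals because reads from it have no single origin:
AT2G07683: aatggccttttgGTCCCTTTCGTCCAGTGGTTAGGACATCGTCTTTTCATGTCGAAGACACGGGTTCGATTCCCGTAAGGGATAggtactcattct
It lies at chr2:3303232-3303327 with its flanks, and the tRNA covers bases 1362 to 1433 of the gene. AT2G07736 was at 2.60 FPKM under the label wbc19 mutant + kanamycin and 12.4 FPKM under control, and listed at 0 in the others. AT2G07735 was at 7.0 FPKM under the label wbc19 mutant + kanamycin only, and AT2G07737 at 5.21 FPKM under control only. The nuclear and mitochondrial sources of these reads cannot be told apart.

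**Figure D3:**
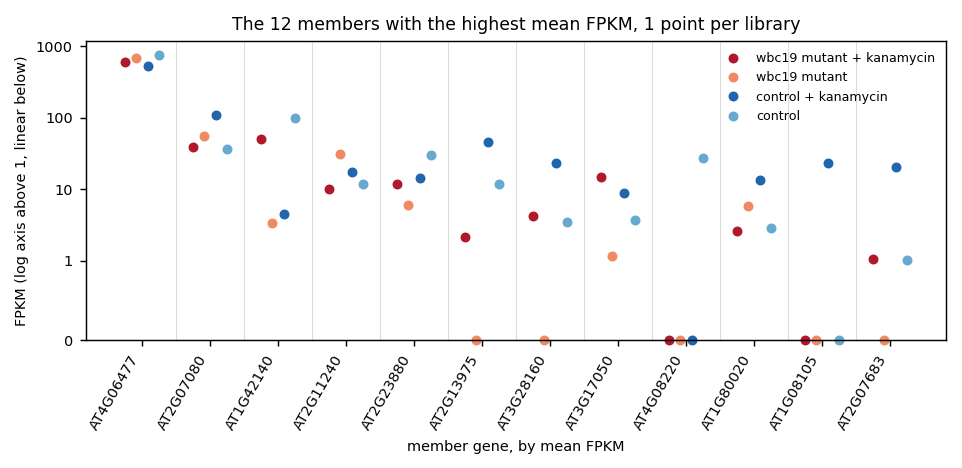
FPKM in each of the 4 libraries (1 point per library, log axis above 1) for the 12 members with the highest mean. AT4G06477 lies between 527 and 763 in all 4 libraries, AT1G42140 is high under wbc19 mutant + kanamycin and under control, and AT1G08105 is above 0 under control + kanamycin only.

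Several copia members were above 0 in 1 library, or nearly so. AT5G45605, at chr5:18490916-18495757, was at 18.6 FPKM under the label wbc19 mutant and listed at 0 in the other 3, and AT4G04410 was at 10.5 FPKM in that library and at 0 in the others. AT3G21010 was at 11.9 FPKM under the label control and at 0 elsewhere. AT2G06950 was at 7.52 FPKM under the label control + kanamycin and listed at 0 under wbc19 mutant. It was at 0.000606 FPKM under control and 0.000364 FPKM under wbc19 mutant + kanamycin. Both of these values came to an estimated 0 reads, but they count as above 0 in every tally here. Of these genes, AT4G04410, AT3G21010 and AT2G06950 had 97.1%, 98.1% and 98.5% of windows at 1 place, and AT5G45605 had 12.4%, so the last shares most of its sequence with other copies.

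Other copia members were above 0 in 2 or 3 libraries. AT3G28160 was at 4.28 FPKM under the label wbc19 mutant + kanamycin, 0 under wbc19 mutant, 23.6 FPKM under control + kanamycin and 3.44 FPKM under control. AT4G16870 was at 9.49 FPKM under the label control + kanamycin and 0.713 FPKM under control, and listed at 0 in the 2 mutant libraries. AT5G56747 was at 10.5 FPKM under the label wbc19 mutant + kanamycin and 1.65 FPKM under control, and at 0 in the others. No library was the highest for all copia members: the sum of the 18 without AT2G07080 was 44.6, 29.9, 85.7 and 51.6 FPKM under wbc19 mutant + kanamycin, wbc19 mutant, control + kanamycin and control. Beside the 10 copia genes picked by the rule for naming, the other 9 had means of 1.31 to 3.03 FPKM.

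LINE elements gave 3 members. AT2G11240, at chr2:4477686-4483748, was at 10.1 FPKM under the label wbc19 mutant + kanamycin, 31.5 FPKM under wbc19 mutant, 17.6 FPKM under control + kanamycin and 11.9 FPKM under control. Its log2 difference was 1.34 for wbc19 mutant against control and −1.55 for wbc19 mutant + kanamycin against wbc19 mutant, and 99.7% of its windows were at 1 place. AT2G23880, at chr2:10165992-10170262, ran the other way, at 11.7 FPKM under the label wbc19 mutant + kanamycin, 5.94 FPKM under wbc19 mutant, 14.3 FPKM under control + kanamycin and 30.01 FPKM under control. Its log2 difference was −2.16 for wbc19 mutant against control. The LINE genes thus did not share a direction, and AT5G55896 was lower, with a mean of 2.83 FPKM.

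The Mutator family held the domesticated genes. Of the 8 MUSTANG genes of Arabidopsis, all were described as transposable element genes, all were above 0 in some library and 6 were members, against 4 of the other 280 Mutator genes. MUG1, at chr3:1246669-1250395, was at 0.761 FPKM under the label wbc19 mutant + kanamycin, 0 under wbc19 mutant, 9.76 FPKM under control + kanamycin and 6.81 FPKM under control. MUG4 was at 2.29, 0, 5.11 and 9.79 FPKM in the same order. MUG8 differed least, at 1.595, 3.44, 1.75 and 3.29 FPKM, and MUG7 was at 1.49, 3.84, 1.93 and 0.484 FPKM. The 6 genes summed to 7.15 FPKM under the label wbc19 mutant + kanamycin, 9.75 FPKM under wbc19 mutant, 21.4 FPKM under control + kanamycin and 23.3 FPKM under control. Both control libraries were above both mutant libraries in this sum, which MUG1 and MUG4 carried. At least 99.5% of the windows of each of the 6 genes were at 1 place as exact matches, and near copies were not counted. RefSeq types MUG3 and MUG7 as protein coding and the other 46 members as pseudogenes. The row of MUG3 also names AT1G06750, and its value may hold reads of both.

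The 4 other Mutator members were each at 0 in at least 2 libraries. AT4G08220, at chr4:5186610-5187572, was at 27.6 FPKM under the label control, from an estimated 17 reads with an interval of 16.3 to 44.7 FPKM, and listed at 0 in the other 3. AT4G11200 was at 9.84 FPKM under the label control + kanamycin and 3.59 FPKM under wbc19 mutant, and at 0 in the others. AT1G64270 and AT2G13970 had the reverse pattern. AT1G64270 was at 9.02 FPKM under the label wbc19 mutant + kanamycin and 2.83 FPKM under control, and AT2G13970 at 6.02 and 10.2 FPKM in the same libraries, with 0 in the others. The authors' locus for AT1G64270 runs past the gene into the next one, AT1G64280, so its value may hold reads of that gene.

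The hAT members, AT1G80020 and AT1G08105, were both highest under the label control + kanamycin. AT1G80020, at chr1:30100473-30103899, was at 2.59 FPKM under the label wbc19 mutant + kanamycin, 5.86 FPKM under wbc19 mutant, 13.6 FPKM under control + kanamycin and 2.88 FPKM under control. Its log2 difference was 1.91 for control + kanamycin against control and −2.02 for wbc19 mutant + kanamycin against control + kanamycin. AT1G08105, at chr1:2531695-2534786, was at 23.0 FPKM under the label control + kanamycin, from an estimated 103 reads, and listed at 0 in the other 3. All windows of AT1G80020 were at 1 place, against 17.4% of those of AT1G08105. The CACTA members were low, AT3G43828 at 4.99 FPKM under the label wbc19 mutant + kanamycin only, and AT4G08110 at 3.34 FPKM under wbc19 mutant and 1.44 FPKM under control.

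Among members of no named family, AT2G13975 was the highest. Its description notes similarity to proteins with a GRF zinc finger. It was at 2.13 FPKM under the label wbc19 mutant + kanamycin, 0 under wbc19 mutant, 45.5 FPKM under control + kanamycin and 12 FPKM under control, with a log2 difference of 1.84 for control + kanamycin against control and −3.89 for wbc19 mutant + kanamycin against control + kanamycin. Its values under wbc19 mutant + kanamycin and control came to an estimated 1 and 5 reads, with intervals of 0.0669 to 14.7 and 4.14 to 29.8 FPKM. AT2G13975 lies 82 bases from AT2G13970 on the opposite strand, and the neighbours did not share their order of libraries, as AT2G13970 was at 0 under the label control + kanamycin. AT3G17050, a pseudogene of a glycine-rich protein, was at 14.7 FPKM under the label wbc19 mutant + kanamycin, 1.15 FPKM under wbc19 mutant, 8.88 FPKM under control + kanamycin and 3.65 FPKM under control. It was higher with kanamycin in both lines, with log2 differences of 2.87 for wbc19 mutant + kanamycin against wbc19 mutant and 1.09 for control + kanamycin against control. Its values under wbc19 mutant and control came to an estimated 2 and 5 reads. The intervals with and without kanamycin overlapped in the control line, at 5.74 to 13.6 and 1.24 to 8.89 FPKM. In the mutant line they did not, at 9.02 to 23.4 and 0.112 to 3.34 FPKM. AT4G07507, related to a replication protein A pseudogene, was at 8.56 FPKM under the label wbc19 mutant + kanamycin only. The other 5 had means of 1.11 to 2.43 FPKM.

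The 4 comparisons were counted by size alone, as a log2 difference of at least 1 in FPKM with 1 added to both values, which understates the change of low genes. Since a gene could become a member through 1 high library, members had to differ more often than steady genes, and their counts are read beside the same count over all 15340 genes that averaged 1 FPKM or more. Each library enters 2 of the comparisons, so the comparisons are not independent. Shares and medians of all genes above 0 in both libraries were taken over every level from 1 FPKM upward. They are not matched to the 42 members with a mean under 10 FPKM. The members named below for the largest differences depend in part on the 1 FPKM added, since many are listed at 0 on one side. Of the 32 places, 25 went to the same members with 0.1 added and 25 with 5 added.

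In control + kanamycin against control, which asks for the effect of kanamycin in a line that resists it, 17 of 48 members were at least 2-fold higher (35.4%) and 15 at least 2-fold lower (31.3%). Over all genes these shares were 24.3% and 35.8%. Of the 26 members above 0 in both libraries, 13 were higher and 3 lower, with a median log2 difference of 1.0. Of the 9675 of all genes above 0 in both, 28.5% were higher and 20.2% lower, and their median was 0.19. AT1G08105, AT2G07683, AT4G11200 and AT2G06950 had the largest differences upward, and AT4G08220, AT1G42140, AT2G07736 and AT3G21010 the largest downward. Of the 19 copia members 9 were higher and 5 lower, and both hAT members were higher. Of the 42 members with a mean under 10 FPKM, 15 were higher and 13 lower, against 22.4% and 43.1% of all genes at that level.

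In wbc19 mutant against control, the comparison of the lines without the antibiotic, 6 members were at least 2-fold higher (12.5%) and 26 at least 2-fold lower (54.2%). Over all genes the shares were 20.1% and 43.3%, so genes were more often lower in general when those listed at 0 were counted. In 20 of the 26, the gene was listed at 0 under the label wbc19 mutant. Of 14 members above 0 in both libraries, 2 were higher and 6 lower, against 29.5% and 20.3% of the 8152 of all genes above 0 in both. AT5G45605, AT4G04410, AT4G11200 and MUG7 had the largest differences upward, and AT4G08220, AT1G42140, AT2G07736 and AT2G13975 the largest downward. For genes with a mean of 1 to 10 FPKM the shares were 16.0% and 51.9%, against 5 and 23 of 42 members at that level.

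In wbc19 mutant + kanamycin against control + kanamycin, the comparison of the lines on the antibiotic, 12 members were at least 2-fold higher (25.0%) and 17 at least 2-fold lower (35.4%), against 32.2% and 28.4% of all genes. Of 24 members above 0 in both libraries, 2 were higher and 11 lower, with a median log2 difference of −0.91. Of the 9010 of all genes above 0 in both, 20.5% were higher and 30.4% lower, and their median was −0.26. AT5G56747, AT1G64270, AT4G07507 and AT1G42140 had the largest differences upward, and AT1G08105, AT2G13975, AT4G11200 and AT4G16870 the largest downward. Among the 42 lower members 11 were higher and 15 lower, against 37.7% and 27% of all genes at that level.

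In wbc19 mutant + kanamycin against wbc19 mutant, the effect of kanamycin in the sensitive line, 23 members were at least 2-fold higher (47.9%) and 7 at least 2-fold lower (14.6%), against 39.0% and 23.1% of all genes. In 20 of the 23, the gene was listed at 0 under the label wbc19 mutant, and of 12 members above 0 in both libraries 3 were higher and 2 lower, against 21.1% and 31.1% of the 7630 of all genes above 0 in both. AT1G42140, AT5G56747, AT1G64270 and AT4G07507 had the largest differences upward, and AT5G45605, AT4G04410, AT4G11200 and AT4G08110 the largest downward. Of the 42 members with a mean under 10 FPKM, 21 were higher and 6 lower, against 45.0% and 19% of all genes at that level.

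**Figure D4:**
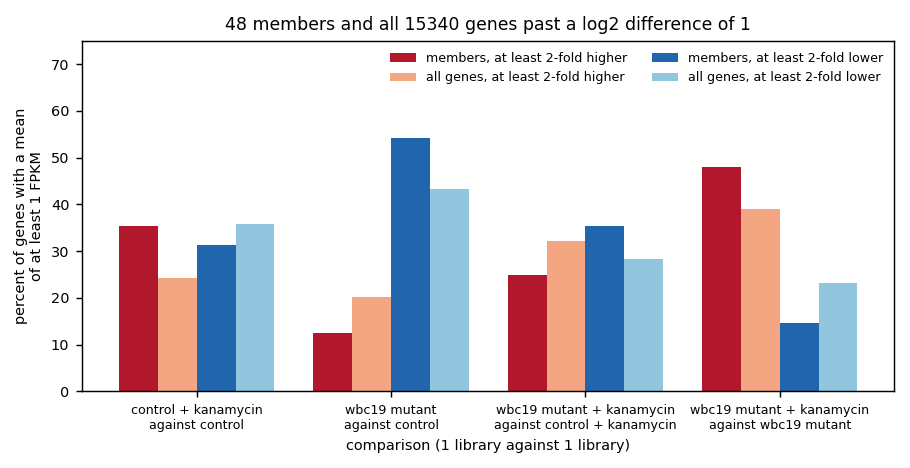
Percent of the 48 members and of all 15340 genes that averaged 1 FPKM or more that were at least 2-fold higher or lower (bars from 0) in each of the 4 comparisons of 1 library with another. Members exceed all genes among higher calls in both comparisons of kanamycin with none (35.4% against 24.3%, and 47.9% against 39.0%) and among lower calls in both comparisons of the mutant with the control (54.2% against 43.3%, and 35.4% against 28.4%). Genes at 1 to 10 FPKM, not drawn, had 22.4% and 45.0% of such higher calls and 51.9% and 27% of such lower calls.

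Members also differed from the other transposable element genes in features that the rule of selection did not name. Reads of a neighbouring transcript could enter the level that chose a member, so these features are not independent of the selection. Of the 48, 21 (43.8%) lay within 1 kb of another kind of gene averaging 1 FPKM or more, against 264 of the 3797 other transposable element genes (6.95%), and the median distance was 2419 bases against 20624. The MUSTANG members were all within 1 kb, from 45 bases for MUG5 to 536 for MUG8. Within 250 kb on either side, a median of 12.9% of annotated genes around a member were transposable element genes, against 59.3% around the others. Members thus lay more often in gene-rich surroundings, although 11 lay where such genes were over 50%, AT1G42140 (76.9%) and AT2G07080 (58.7%) among them. For copia elements the contrast was smaller, with 5 of 19 members (26.3%) and 71 of 478 others (14.9%) within 1 kb and nearly equal median distances of 5488 and 5626 bases, while for Mutator elements it was 9 of 10 (90.0%) and 19 of 278 (6.83%). Within 250 kb, the median share of transposable element genes was 16.9% around copia members and 26.0% around other copia genes. Around Mutator members it was 2.07%, against 41.7% around the others. As 6 of the 10 Mutator members are MUSTANG genes, this contrast is in part one of domesticated genes with other elements. Around the 4 other Mutator members the share was 40.9% (AT4G08220), 34.4% (AT2G13970), 4.52% (AT4G11200) and 2.41% (AT1G64270). AT2G13970 alone of the Mutator members lay farther than 1 kb from such a gene, at 41619 bases. Of the 21 neighbours, 16 had a higher mean than the member, and AT1G58561 and AT1G64270 overlap theirs. Strand was not kept in the counting as far as the methods state, and the part of neighbouring transcripts in these values was not tested.

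**Figure D5:**
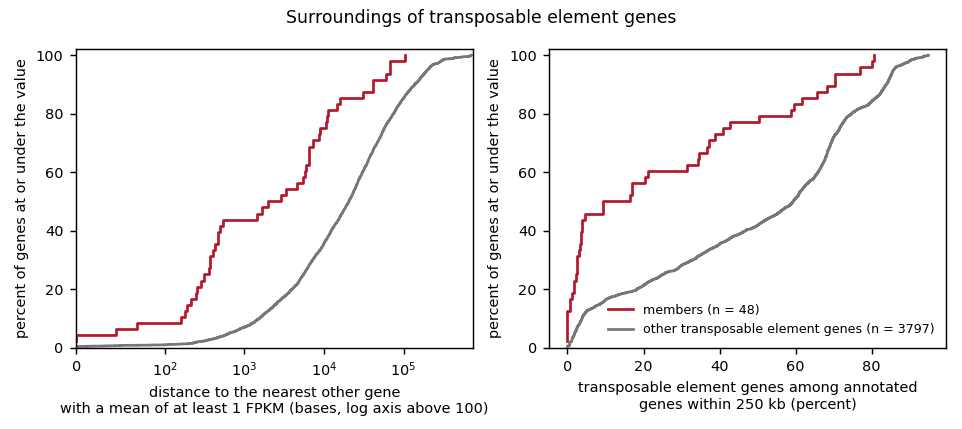
Cumulative percent of the 48 members and the 3797 other transposable element genes by distance in bases to the nearest other gene averaging 1 FPKM or more (left, log axis above 100) and by percent of transposable element genes among annotated genes within 250 kb (right). The line of the members lies above that of the others in both panels, with medians of 2419 against 20624 bases and 12.9% against 59.3%.

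Counted as exact copies of 36-base windows, most members held little repeated sequence, and a few held much. A median of 98.2% of a member's 36-base windows occurred at 1 place, against 81.5% in the other transposable element genes, and 31 members (64.6%) had at least 95% of them at 1 place, against 1230 of the others (32.4%). The median was 95.3% in copia members and 95.9% in other copia genes, whereas all 10 Mutator members had at least 95%, against 29.9% of the 278 others. How reads with several places were counted bears on the level of repeated elements, and its part in this contrast was not tested. At the other end, 7 members (14.6%) had under 20% of windows at 1 place, against 8.88% of the other transposable element genes, and among copia genes this share was 26.3% of members and 10.5% of the others.

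Genes of the silencing machinery were also in the table. Of 39 genes for DNA methylation and chromatin, RNA-directed DNA methylation and post-transcriptional silencing, 30 had a mean of at least 1 FPKM. With kanamycin, 9 of these were at least 2-fold higher and 8 lower in the control line, where 24.3% and 35.8% of all genes were, and 11 and 9 in the mutant line, where 39.0% and 23.1% were. Between the lines, mutant against control, 9 were higher and 9 lower without the antibiotic, beside 20.1% and 43.3% of all genes, and 12 and 9 on it, beside 32.2% and 28.4%. The medians over the 30 genes lay between −0.06 and 0.06, but some lists within them lay apart. In the comparison of the lines on kanamycin, the 15 genes for DNA methylation and chromatin had a median log2 difference of 1.15, with 9 higher and 3 lower, and the 9 genes for RNA-directed DNA methylation one of −0.82, with 1 higher and 4 lower. In the control line with kanamycin against without, their medians were −0.10 and 1.13. The 6 post-transcriptional genes had medians of −0.10 between the lines on kanamycin and −0.18 in the control line. The comparison of the lines on kanamycin and that within the control line share the library labelled control + kanamycin. The opposite signs within a list are therefore not independent. Without the antibiotic, mutant against control, the medians of the 3 lists in that order were 0, 0.35 and 0.02. In the mutant line with kanamycin against without, they were 0.50, −0.36 and 0.09. HTA6, a histone H2A of heterochromatin, was at 49.7 FPKM under the label wbc19 mutant + kanamycin, 187 FPKM under wbc19 mutant, 21.8 FPKM under control + kanamycin and 68.4 FPKM under control. RDM1, which joins the methyltransferase DRM2 to AGO4, was at 4.13, 117, 0 and 10.1 FPKM in the same order. HTA6, RDM1, HTA7 (58.4 FPKM), MORC6 (41.1 FPKM), ATXR5 (34.9 FPKM) and HEN1 (24.3 FPKM) were highest under wbc19 mutant. They were named for a high mean, which 1 high library can give, so this follows in part from the pick. ATXR5 was listed at 0 in all other libraries. HEN1 was at 3.49 FPKM under wbc19 mutant + kanamycin and listed at 0 under both control labels. The library labelled wbc19 mutant also had the most of the 39 genes listed at 0, with 18, against 7 under wbc19 mutant + kanamycin, 15 under control + kanamycin and 10 under control. AGO1, the slicer of microRNA targets, and AGO4, of RNA-directed methylation, varied less, at 19.2 to 35.6 FPKM and 7.65 to 15.6 FPKM. HTA6 was at least 2-fold apart in all 4 comparisons. RDM1, NRPD2 and SUVH2 met the same rule of size with 1 FPKM added, but each was listed at 0 in 1 library, which enters 2 of the comparisons. NRPD2, a subunit of the polymerases of this pathway, was at 2.03, 0, 10.5 and 3.74 FPKM in that order of libraries, and SUVH2, which recruits one of them, at 2.17, 0, 0.276 and 3.07 FPKM. The 4 DNA demethylases, which oppose silencing, summed to 8.50, 9.25, 32.1 and 12.3 FPKM, and DME alone gave 1.34, 4.08, 22.6 and 5.22 FPKM of these sums. Among domesticated transposase genes outside the list, FHY3, of far-red light signalling, was at 3.65, 6.45, 38.4 and 15.4 FPKM, its relative FAR1 at 5.14, 0, 3.66 and 8.31 FPKM, and DAYSLEEPER, a hAT transposase in origin, at 5.22, 5.26, 3.75 and 5.63 FPKM.

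The limit of 1 FPKM fell within a continuous run of levels. Just inside lay MUG5 at a mean of 1.08 FPKM, AT2G11880 at 1.11, AT4G08110 at 1.19 and MUG3 at 1.24. Just outside lay AT3G14800 at 0.999 FPKM, MUG2 at 0.977, AT5G50315 at 0.963 and AT5G28430 at 0.949.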

How the data were processed

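Fragmented poly(A) RNA was turned into 4 single-end libraries, with PCR but no molecular identifiers. The authors clipped reads to 36 bases, used TopHat2 2.0.5 for alignment to TAIR10 and Cufflinks 2.0.2 for assembly, and computed the deposited FPKM, headed rpkm in their table, with Cuffdiff 1.3.0. Columns of the authors' fold changes, p-values and q-values for each comparison were not used. FPKM of 33539 rows with 4 usable values was taken, after 7 rows without values and 78 whose repeated values differ were left out, and a value of 0.01 written for 0 was read as 0.

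Members, gene lists and tests were chosen with earlier results of these data known. Families were read from keywords in the descriptions. Differences are log2 ratios with a pseudocount of 1, and a rule of size of 2-fold was used, since 1 library per condition allows no test. Named are the 15 members with the highest mean, the 4 that differed most, upward and downward, in every comparison, the highest of each family, the 10 highest above 0 in all libraries, and of the silencing list the 8 highest genes and those 2-fold apart in all comparisons. Other members that are named were chosen after their values were seen.

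Total reads are not in the table, and the mapped totals that the study lists for its libraries were not used. The value of 1 read was estimated from the lowest peak of FPKM times transcript length less 200 bases, over 18600 genes of 1 transcript, as 1.30 FPKM per 1000 bases under the label wbc19 mutant + kanamycin, 0.760 under wbc19 mutant, 0.647 under control + kanamycin and 1.25 under control. Of values of 0.5 to 2.5 reads, 67.1% to 75.7% lay within 0.2 of a whole number. Intervals are exact Poisson intervals at 95%, cover counting error only, and inherit the error of these estimates. Each of the listed totals is larger than any that these estimates imply, so reads may be too few and intervals too wide, and the gap was not resolved. Copies made by PCR could not be told from separate fragments, which would make the intervals too narrow. Coordinates and sequences are from RefSeq TAIR10.1, whose nuclear coordinates matched those of the table for 43 of 48 members. The mitochondrial genome of RefSeq may differ from that of TAIR10. Copies of 36-base windows were counted as exact matches on both strands. The authors' alignment allowed mismatches, so reads placed at a window found at 1 place may still stem from near copies. The step estimate and the window count were checked on simulated data. The peak was searched within a fixed range, in which the simulated steps also lay. This check therefore could not show whether the peak found in the libraries is that of 1 read. Alternatives were pseudocounts of 0.1 and 5, no limit or a limit of 5 on mean FPKM, and rescaling of libraries by median ratio or upper quartile. Python 3.11.15, numpy 2.4.6, scipy 1.17.1, pandas 2.3.3 and matplotlib 3.10.9 were used.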

Additional observations from a re-analysis of the deposited data

Results flagged for a closer look

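Members above 0 in all 4 libraries were searched for a difference of at least 2-fold with kanamycin in both lines, in opposite directions, and 2 of 11 were found. For AT1G42140, the Athila gene, the log2 difference was 3.55 for wbc19 mutant + kanamycin against wbc19 mutant and −4.19 for control + kanamycin against control. For AT5G34851, a gypsy gene, it was 1.42 in the mutant line and −2.19 in the control line. The low values of AT5G34851, 0.417 FPKM under wbc19 mutant and 0.712 FPKM under control + kanamycin, came to an estimated 3 and 5 reads. Both genes were highest under the labels wbc19 mutant + kanamycin and control, the libraries with the fewest reads by the step estimate. In these libraries AT1G42140 came to an estimated 169 and 349 reads, against 19 under wbc19 mutant and 31 under control + kanamycin. The part of library depth in this contrast was not tested. With 1 library per condition the difference between the lines was not tested. Counting also members listed at 0 somewhere, 10 of 48 (20.8%) ran in opposite directions, against 20% of all 15340 genes that averaged 1 FPKM or more, so the members did not stand apart in this.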

How the results depend on the processing

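Counts kept within 1.5 times of their value under both rescalings and without the 8 members that share windows with an organelle or have under 20% of windows at 1 place, an alternative chosen after seeing the data. In the order control + kanamycin against control, wbc19 mutant against control, wbc19 mutant + kanamycin against control + kanamycin, and wbc19 mutant + kanamycin against wbc19 mutant, the counts of higher members were 17, 6, 12 and 23 and of lower members 15, 26, 17 and 7. With a limit of 5 FPKM, which leaves 12 members, they were 7, 1, 1 and 5 higher and 3, 7, 6 and 1 lower. With a pseudocount of 5 they were 11, 3, 8 and 10 higher and 8, 11, 13 and 3 lower, and with a pseudocount of 0.1 the last count of lower members was 12. With no limit on the mean, over 3845 genes, 30 and 41 were lower in the first and second comparisons and 19 higher in the third. Without members listed at 0 in either library, also chosen after seeing the data, the counts were 13, 2, 2 and 3 higher and 3, 6, 11 and 2 lower, so most calls in both comparisons with the library labelled wbc19 mutant rest on genes listed at 0. Of 648 values of named members under the alternatives, 609 stayed on their side of 2-fold and none of the calls changed sign. For an abundant gene, rescaling shifted log2 differences by −0.10 to 0.18, and the median over all genes was −0.15, −0.55, 0.00 and 0.14 before it. No paired analysis was possible because each condition has a single library. Of 117 member values above 0 with an estimate, 53 rest on fewer than 10 estimated reads, which limits their precision, while 39 of 46 members had at least 10 estimated reads in some library.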

Other observations

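The members fell into patterns of presence over the 4 libraries, which were looked at after the values had been seen. The most common were presence in all 4 libraries and presence in all but that labelled wbc19 mutant, with 11 members each (22.9%), against 40.3% and 15.3% of all genes that averaged 1 FPKM or more and 17.7% and 18.3% of those with a mean of 1 to 10 FPKM. AT2G13975, MUG1 and AT3G28160 were among the second. In 6 members (12.5%), AT1G64270, AT2G13970 and AT5G56747 among them, values were above 0 only under wbc19 mutant + kanamycin and under control, against 9.63% of all genes and 15.1% of those with a mean of 1 to 10 FPKM. The reverse pattern, in the libraries labelled wbc19 mutant and control + kanamycin only, was shown by AT4G11200 alone (2.08%), against 0.717% of all genes and 0.986% of those at 1 to 10 FPKM. The first pair of libraries had the fewest reads by the step estimate and the most genes above 0.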
